A study of Mus musculus with 9 samples.

Results

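The genes described here are 10 enzymes that make long-chain fatty acids or alter them: Acly, Acaca, Fasn, Scd1, Scd2, Elovl1, Elovl5, Elovl7, Fads1 and Fads2. They were chosen by name, and all 10 were present among the 11315 genes of every library. Each gene was read as its normalized value on the log2 scale, in which a difference of 1 is a doubling. RNA had been sequenced from fluorescently sorted mouse brain cells at postnatal day 60 on the C57BL/6 strain, with 3 libraries in each of 3 groups. The PDGFRa-GFP group is labelled as oligodendrocyte progenitors, the PLP-GFP group as pre-myelinating oligodendrocytes and the NDRG1-eGFP group as myelinating oligodendrocytes. The title of the series concerns a myelinating population that expresses NDRG1, so its contrast with PLP-GFP cells comes first below. Each group is defined by the activity of its reporter, and no treatment is given for any of them. No label ties the replicates to separate animals or cultures, and the p-values therefore rest on a spread among libraries that may be technical.

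Myelin is a membrane unusually rich in lipid, and oligodendrocytes build much of its fatty acid themselves. Citrate leaves the mitochondrion and is split to acetyl-CoA by Acly, Acaca carboxylates acetyl-CoA to malonyl-CoA, and Fasn joins these units into palmitate. Elongases of the Elovl family lengthen the chain in the endoplasmic reticulum, and desaturases of the Scd and Fads families place double bonds in it. Very long saturated and monounsaturated chains, to which Elovl1 and Elovl7 contribute, go into the sphingolipids of the sheath.

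The groups were checked against marker genes before the results. The sum of 8 myelin genes took 89000 to 110000 ppm of the summed linear values in every library, the PDGFRa-GFP libraries included. The median of 8 measured progenitor markers was low in all groups, at 7.51 in PDGFRa-GFP, 7.75 in PLP-GFP and 7.26 in NDRG1-eGFP, where the median gene stood at 10.57. Pdgfra itself read 6.87, 7.54 and 5.47 in PDGFRa-GFP, below the median gene, though it was higher there than in PLP-GFP, where it read 1.52, 4.98 and 1.63. The myelin genes in PDGFRa-GFP libraries go against the label of progenitors, and the group is called here by its reporter. PDGFRa-GFP replicate 3 stood apart, with Pearson correlations of 0.935 and 0.931 to replicates 1 and 2, which correlated at 0.982. Calls against this group are given with and without it where leaving it out changed the call, and its effect on the counts is given beside them.

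Sequences are shown first for the genes whose values depend on telling similar transcripts apart. Scd1 and Scd2 both lie on chromosome 19 of GRCm38. Scd1 is at 44394455 to 44407879 on the minus strand, and Scd2 at 44293674 to 44306864 on the plus strand. Their aligned coding sequences are identical at 90.7% of bases. The starts of both coding sequences are printed from the GENCODE M21 transcripts, with bases that differ or are missing in the other gene in capitals.
Scd1: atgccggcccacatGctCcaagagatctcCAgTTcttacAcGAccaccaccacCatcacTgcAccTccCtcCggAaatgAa
Scd2: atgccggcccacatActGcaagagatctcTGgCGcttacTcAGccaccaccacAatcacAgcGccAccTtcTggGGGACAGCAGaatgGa
Of the 50-base windows of Scd1 transcripts 4.7% also occur in transcripts of another locus, and of those of Scd2 3.8%. These shares are over whole transcripts of 4832 and 5455 bases, in which coding sequence takes 1068 and 1077. The longest identical run of the coding sequences is 147 bases, from position 523 of Scd1, past the printed starts. Such shares take no account of level. In PLP-GFP Scd2 took 11300 to 14000 ppm of the summed linear values and Scd1 186 to 196. Of the 5406 windows of Scd2, 145 also occur in Scd1. How much of the Scd1 values comes from reads of Scd2 was not tested, and the values of Scd1 are uncertain. Acaca has the largest share of the 10 genes: 52.6% of its windows also occur in Gm5182, a processed pseudogene. A stretch of 60 coding bases of Acaca, which starts at coding position 3675 and is found letter for letter in Gm5182, shows what such a window looks like.
Acaca: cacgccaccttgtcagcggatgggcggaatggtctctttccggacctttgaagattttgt
Reads from this stretch could be assigned to either locus, so the values of Acaca are uncertain. The other 7 genes shared 0.2% of windows or less, and the remaining paralogs are far apart in sequence, with 68.3% identical aligned coding bases for Fads1 and Fads2 and 66.1% for Elovl1 and Elovl7.

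Upstream sequences are shown for Fasn and Elovl1, the palmitate synthase and an elongase, since their levels differed in opposite directions between NDRG1-eGFP and PLP-GFP cells. The 250 bases before each start come from RefSeq on GRCm38.p6, chr11:120824548-120824797 on the minus strand for Fasn and chr4:118427843-118428092 on the plus strand for Elovl1. Capitals mark CCAAT on either strand, the core of a motif bound by the factor NF-Y.
Fasn: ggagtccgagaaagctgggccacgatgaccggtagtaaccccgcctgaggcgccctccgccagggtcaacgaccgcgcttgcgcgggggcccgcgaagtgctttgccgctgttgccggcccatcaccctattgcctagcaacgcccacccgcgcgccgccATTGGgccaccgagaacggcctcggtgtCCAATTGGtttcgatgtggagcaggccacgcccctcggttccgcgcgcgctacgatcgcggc
Elovl1: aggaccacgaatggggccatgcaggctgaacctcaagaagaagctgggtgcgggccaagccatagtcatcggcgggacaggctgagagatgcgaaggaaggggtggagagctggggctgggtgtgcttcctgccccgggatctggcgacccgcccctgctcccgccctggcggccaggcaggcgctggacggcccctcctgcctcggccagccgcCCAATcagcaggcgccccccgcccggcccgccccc
The Fasn sequence holds CCAAT at 3 places, 2 of them overlapping in CCAATTGG, and no GGGCGG. The Elovl1 sequence holds CCAAT once and GGGCGG, a GC box, at 5 places. Searched on both strands in windows that also include the 50 bases after the start, CCAAT occurs in 37.4% of all 32851 RefSeq promoters and GGGCGG in 35.7%. CCAAT was found in 4 of the 8 promoters listed for 7 of the 10 genes, and the E-box CACGTG, present in 7.2% of all promoters, in that of Elovl5 only. A sterol element searched for as a single consensus, present in 0.1% of all promoters, was found in none of the 8.

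Levels of different genes were compared per length, by subtracting log2 of the longest transcript in kilobases. On this scale Scd2, the main stearoyl-CoA desaturase of brain, was the highest of the 10 genes in all 3 groups, with means of 16.46 in PDGFRa-GFP, 17.16 in PLP-GFP and 16.23 in NDRG1-eGFP. Scd2 made up 52.9% to 77.4% of the summed linear value per kilobase of the 10 genes and ranked between 9 and 30 among 11272 genes with a length. Means over all 9 libraries then ran, per length, from Elovl5 at 13.85 and Elovl1 at 13.80 to Elovl7 at 12.79, Acly at 12.15, Fasn at 11.25, Fads1 at 11.24, Scd1 at 10.99, Acaca at 8.47 and Fads2 at 6.28. The order turned between groups for Elovl1 and Elovl5: per length, Elovl1 was above Elovl5 in all 3 NDRG1-eGFP libraries, at 14.36 to 14.65 against 13.89 to 13.94, and below it in all 3 PLP-GFP libraries, at 13.23 to 13.58 against 13.77 to 13.99. In PDGFRa-GFP the ranges of both overlapped, at 13.45 to 13.65 and 13.51 to 13.98. The means of Fasn and Fads1 differed in each group by less than the larger of their SDs. Fads2, the delta-6 desaturase that opens the synthesis of polyunsaturated chains, was the only gene of the 10 below the median gene in all 3 groups, at a mean percentile of 16.2 to 20.1 of the values as deposited. Acaca was below it in NDRG1-eGFP, at 46.3. Fads1, the delta-5 partner of Fads2 and also on chromosome 19, stood at a percentile of 85.2 to 92.4.

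**Figure D1:**
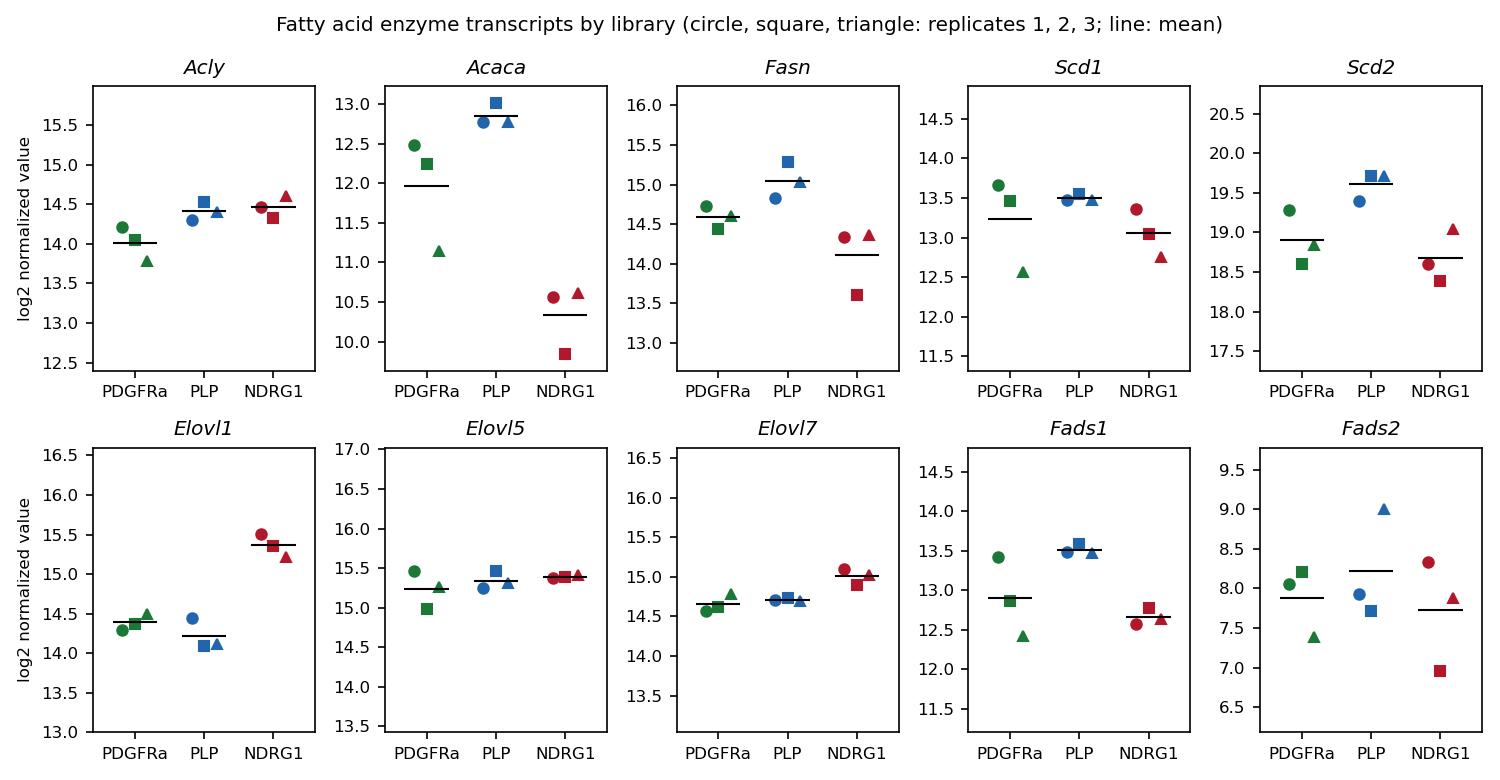
Normalized value on the log2 scale of each of the 10 genes in each library, by reporter group, with every point 1 library and the bar the group mean. The NDRG1-eGFP libraries lie below the PLP-GFP libraries for Acaca, Fasn, Scd1, Scd2 and Fads1, and above them for Elovl1 and Elovl7.

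In NDRG1-eGFP cells the carboxylase, the synthase and a desaturase of each family were lower than in PLP-GFP cells, and Elovl1 and Elovl7 were higher, the latter by a narrow call. Acaca, Fasn, Scd2 and Fads1 fell and Elovl1 and Elovl7 rose at an adjusted p under 0.05 in limma. Acly, Elovl5, Scd1 and Fads2 did not pass. The 6 genes called of 10 have to be read against a background of 48.3% of all 11315 genes called in this comparison. By direction, 2 of the 10 rose against 26.1% of all genes, and 4 fell against 22.2%. Libraries of the groups did not overlap for 2 genes that were higher, beside 36.6% of all genes, and for 5 that were lower, beside 29.8%. The median difference over the 10 genes was -0.47, and over all genes it was 0.0847. A lower level in a bulk library can mean fewer cells of a type or less RNA per cell, and these cannot be told apart here.

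Fasn, which carries out all the steps from malonyl-CoA to palmitate on a single protein, read 14.83, 15.28 and 15.03 in PLP-GFP and 14.34, 13.61 and 14.36 in NDRG1-eGFP. The groups did not overlap, and replicate 2 was the lowest of the NDRG1-eGFP libraries. The log2 fold change was -0.94 ± 0.20 (SE; limma adjusted p = 0.00384). Acaca, the cytosolic acetyl-CoA carboxylase and rate-limiting step of the pathway, read 12.78, 13.01 and 12.78 in PLP-GFP and 10.56, 9.85 and 10.61 in NDRG1-eGFP. Its difference of -2.51 ± 0.32 (SE; limma adjusted p = 0.000236) was the largest in size of the 10. Genes that share sequence were also lower: the 133 genes with over 50% shared windows had a median of -1.88 here, with 91.7% of them below 0, and the 10234 genes with at most 5% had a median of 0.13. How much of the Acaca difference comes from reads of the pseudogene was not tested.

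Acly, which supplies the acetyl-CoA, read 14.30, 14.53 and 14.40 in PLP-GFP and 14.47, 14.33 and 14.61 in NDRG1-eGFP. These groups overlapped, with a log2 fold change of 0.06 and a 95% interval of -0.24 to 0.36. The within-library difference Acly minus Fasn, on the scale per length, was 0.55 ± 0.12 (SD, n = 3) in PLP-GFP and 1.55 ± 0.32 (SD, n = 3) in NDRG1-eGFP.

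Among the desaturases, Scd2 read 19.40, 19.71 and 19.71 in PLP-GFP and 18.60, 18.39 and 19.04 in NDRG1-eGFP, without overlap. Its log2 fold change was -0.93 ± 0.21 (SE; limma adjusted p = 0.00542). Scd1, which catalyses the same delta-9 step, read 13.48, 13.55 and 13.48 in PLP-GFP and 13.36, 13.05 and 12.76 in NDRG1-eGFP. The Scd1 groups did not overlap either, but the difference of -0.45 did not pass (limma adjusted p = 0.168). It passed when PDGFRa-GFP replicate 3, the library that stood apart, was left out of the fit (limma adjusted p = 0.0175). Fads1 read 13.48, 13.59 and 13.47 in PLP-GFP and 12.58, 12.78 and 12.64 in NDRG1-eGFP, with little spread in either group. Its log2 fold change was -0.85 ± 0.21 (SE; limma adjusted p = 0.00748). Fads2 read 7.93, 7.71 and 9.0 in PLP-GFP and 8.33, 6.96 and 7.88 in NDRG1-eGFP, with overlap, and its 95% interval of -1.46 to 0.48 leaves a fall of the size seen in Fads1 possible.

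Among the elongases, Elovl1, which extends saturated and monounsaturated chains to very long lengths, read 14.44, 14.09 and 14.12 in PLP-GFP and 15.51, 15.36 and 15.22 in NDRG1-eGFP. Every NDRG1-eGFP library was above every PLP-GFP library, and the log2 fold change was 1.15 ± 0.13 (SE; limma adjusted p = 0.000131). Elovl7, a close relative that also acts on long saturated chains, read 14.71, 14.73 and 14.69 in PLP-GFP and 15.10, 14.90 and 15.02 in NDRG1-eGFP. Its smaller difference of 0.30 ± 0.11 (SE) passed narrowly (limma adjusted p = 0.0427) and was lost in 9 of 19 alternatives, among them recentring of the libraries, where it was 0.22 (limma adjusted p = 0.118). It was also lost when any of 6 libraries was left out: PDGFRa-GFP replicate 2, each PLP-GFP library, and NDRG1-eGFP replicates 1 and 3. Elovl5, which works on polyunsaturated and shorter monounsaturated chains, read 15.25, 15.47 and 15.31 in PLP-GFP and 15.37, 15.39 and 15.41 in NDRG1-eGFP. Its 95% interval of -0.25 to 0.34 around 0.05 excludes a difference of the size of that of Elovl1.

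**Figure D2:**
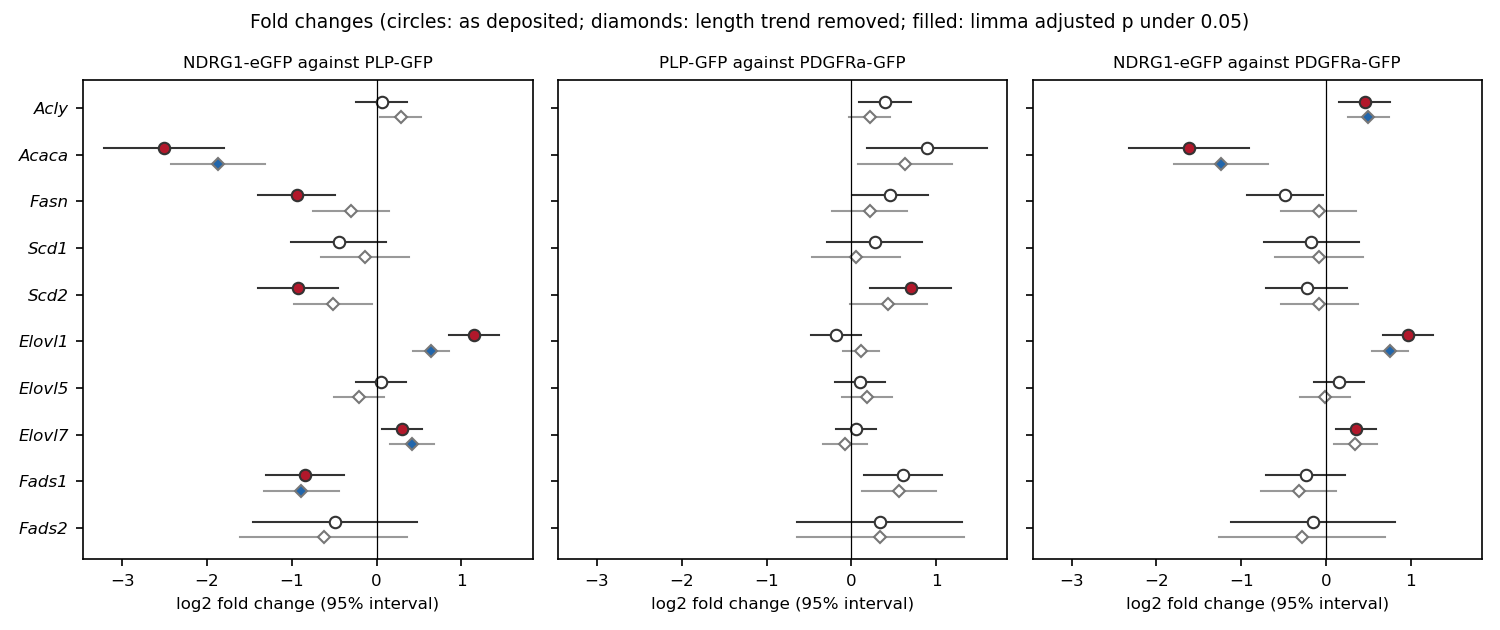
Log2 fold change of each gene in the 3 comparisons, with its 95% interval; circles show the values as deposited, diamonds those with the length trend removed, and filled symbols passed a limma adjusted p under 0.05. Among the circles Elovl1 lies at 1.15 and Acaca at -2.51 for NDRG1-eGFP against PLP-GFP, and in the middle panel Scd2 alone passed.

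Differences between genes within a library, on the scale per length, restate these fold changes library by library and are given as a description. Elovl1 minus Fasn was 2.09, 1.28 and 1.55 in PLP-GFP, 3.64, 4.23 and 3.33 in NDRG1-eGFP and 2.05, 2.40 and 2.38 in PDGFRa-GFP. Elovl1 thus stood above Fasn per length in every library, and further above it in the NDRG1-eGFP libraries. A fixed length scale does not take out the relation of the fold changes to length given below: with that trend removed the fold changes of Elovl1 and Fasn were 0.64 and -0.30 in place of 1.15 and -0.94. Elovl1 minus Elovl5 was -0.51 ± 0.29 (SD, n = 3) in PLP-GFP and 0.59 ± 0.16 (SD, n = 3) in NDRG1-eGFP. Scd2 minus Scd1 was 5.92 ± 0.16 (SD, n = 3) in PLP-GFP and 5.44 ± 0.57 (SD, n = 3) in NDRG1-eGFP, where 2 of the libraries lay below the PLP-GFP range and replicate 3 above it. Fasn minus Acaca ran from 1.97 to 2.20 in PLP-GFP and from 3.67 to 3.70 in NDRG1-eGFP.

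**Figure D3:**
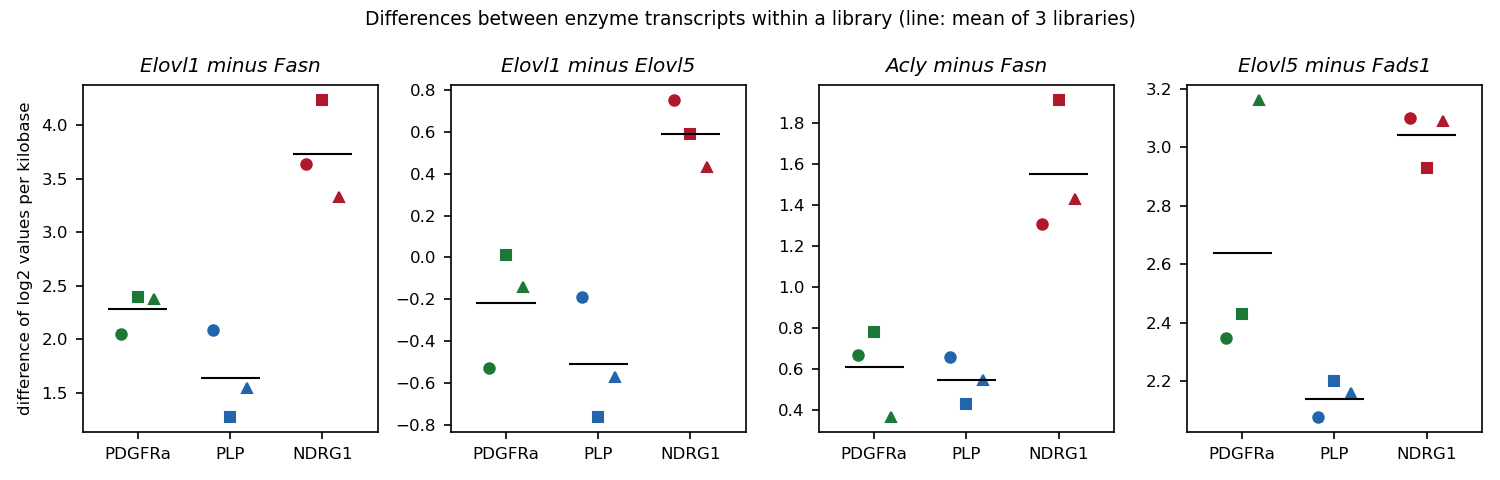
Differences between pairs of the genes within each library, on the log2 scale per kilobase of transcript, by reporter group, with every point 1 library, its shape the replicate number and the line the group mean. Elovl1 minus Fasn is above 0 in all 9 libraries, at 3.33 to 4.23 in NDRG1-eGFP and at 1.28 to 2.40 in the other 6.

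The differences between NDRG1-eGFP and PLP-GFP libraries moved with transcript length, over all genes and over these 10. Across the 10 genes the Pearson correlation of the log2 fold change with log2 of the longest transcript was -0.80, and across 11272 genes it was -0.31; these genes come from the same 9 libraries and are not replicates. The 500 genes nearest to Fasn in length had a median of -0.63 beside its -0.94, and those nearest to Acaca a median of -0.65 beside its -2.51. Those nearest to Scd2 had a median of -0.48 beside -0.93, and those nearest to Elovl1 a median of 0.62 beside 1.15. Fads1 was at -0.85 where its neighbours had a median of 0.11.

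After the trend on length was removed from each library, 2 genes were called higher and 2 lower, beside 19.3% and 16.5% of all genes. Elovl1 remained higher at 0.64 (limma adjusted p = 0.00084) and Elovl7 at 0.42 (limma adjusted p = 0.0177), and Acaca remained lower at -1.87 (limma adjusted p = 0.000405) and Fads1 at -0.89 (limma adjusted p = 0.00665). Fasn no longer passed at -0.30 (limma adjusted p = 0.262), nor did Scd2 at -0.52 (limma adjusted p = 0.0736). The part of length in their differences was not tested beyond this fit.

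**Figure D4:**
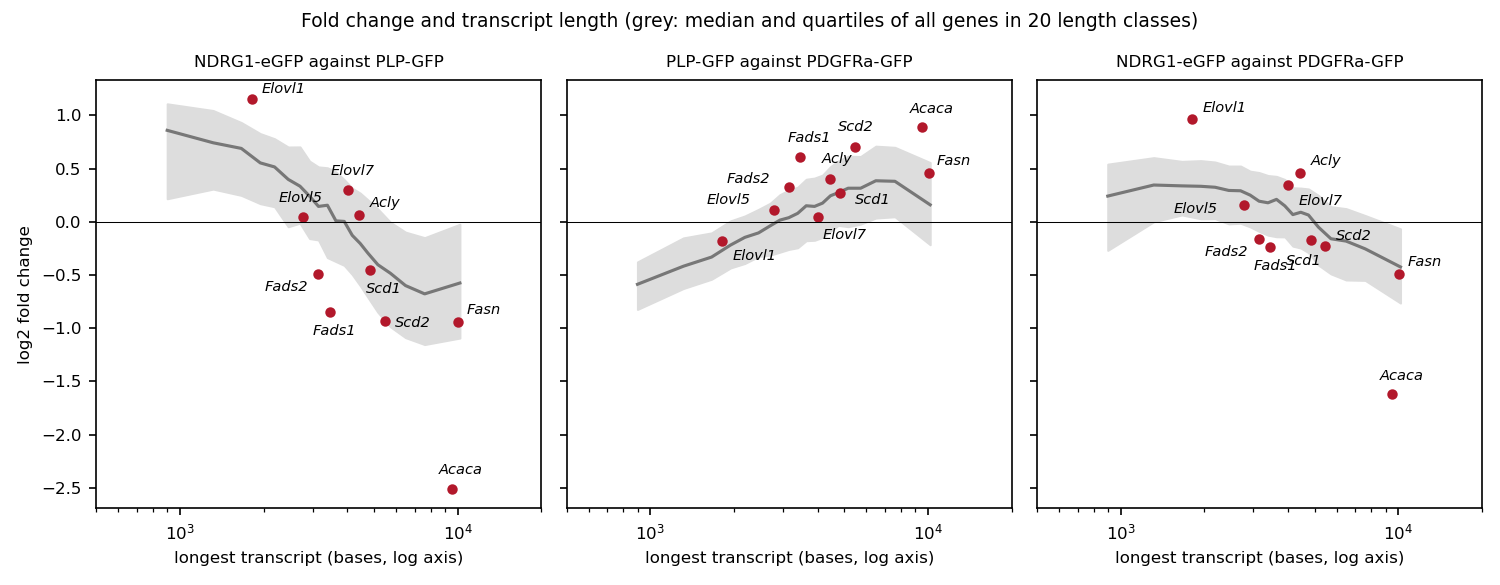
Log2 fold change of the 10 genes against the length of the longest transcript on a log axis, over the median and quartiles of all genes in 20 length classes. For NDRG1-eGFP against PLP-GFP the grey median is lower for longer transcripts, Fasn and Scd2 lie near the lower quartile, and Acaca, Fads1, Fads2 and Elovl1 lie outside the band.

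Markers of other cells and of handling also moved between these groups. The summed immediate early genes, which are induced when cells are stressed or dissociated, took 319 to 366 ppm in PLP-GFP and 3310, 576 and 4420 in NDRG1-eGFP, and 10 of 15 rose. The 7 measured fibroblast-like markers took 2.31 to 6.62 ppm in PLP-GFP and 42.8 to 150 in NDRG1-eGFP, and 6 of them rose. The 9 measured microglial markers took 46.9 to 70.4 and 101 to 143, and 7 rose. Among all genes 26.1% rose in this comparison. The lowest value of any gene in a library was 0.29 to 0.32, so an undetected marker cannot be told by a value of 0. NDRG1-eGFP replicate 2, with the lowest immediate early sum of its group, had the lowest Acaca, Fasn and Scd2, and without that library the fold changes were -2.27, -0.70 and -0.79. The part of these markers in the differences was otherwise not tested.

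Between PLP-GFP and PDGFRa-GFP cells only Scd2 was called. It read 19.28, 18.60 and 18.84 in PDGFRa-GFP, below all PLP-GFP libraries, and rose by 0.70 ± 0.21 (SE; limma adjusted p = 0.0487). That is 1 of 10 genes called, beside 17% of all genes in either direction, 8.46% higher and 8.53% lower. At an unadjusted p under 0.05 in limma Acaca, Acly, Fads1 and Fasn were higher as well, and none was lower. The share of all genes under that unadjusted threshold is not given, here or below. Genes named by it are therefore not read as a result about the 10. The Scd2 call was lost in 13 of 19 alternatives. It was lost at 0.67 without PDGFRa-GFP replicate 3 (limma adjusted p = 0.0598). With the length trend removed Scd2 was at 0.44 (limma adjusted p = 0.195) and 0 of the 10 genes were called, beside 4.44% of all genes higher and 5.15% lower; Fads1, Acaca and no other gene of the 10 had an unadjusted p under 0.05. Of the single libraries left out, only the fits without PDGFRa-GFP replicate 1 or NDRG1-eGFP replicate 3 kept it.

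Although few genes passed, 5 of the 10 had PLP-GFP libraries that were all above all PDGFRa-GFP libraries, beside 22.3% of all genes, and none had the reverse, beside 20% of all genes. Besides Scd2 these were Acaca, Acly, Fads1 and Fasn. Acaca read 12.49, 12.25 and 11.15 in PDGFRa-GFP and Fads1 read 13.42, 12.87 and 12.42, so that replicate 3 was the lowest for both. Acly read 14.21, 14.05 and 13.78 there, again with replicate 3 the lowest, and Fasn 14.73, 14.44 and 14.60. Without PDGFRa-GFP replicate 1 Acaca, Acly and Fads1 passed as well as Scd2, in a fit for which the share of all genes is not given here. Without PDGFRa-GFP replicate 3 the count called was 0, where 1449 of all 11315 genes were called higher in PLP-GFP. The difference of Acaca then went from 0.89 to 0.48 and that of Fads1 from 0.61 to 0.36. The elongases differed less, by -0.18 for Elovl1, 0.11 for Elovl5 and 0.05 for Elovl7.

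Between NDRG1-eGFP and PDGFRa-GFP cells Elovl1, Elovl7 and Acly were called higher in NDRG1-eGFP and Acaca lower, and no desaturase passed with all libraries in the fit. Elovl1 read 14.30, 14.37 and 14.50 in PDGFRa-GFP, below all NDRG1-eGFP libraries, and was higher in NDRG1-eGFP by 0.97 ± 0.13 (SE; limma adjusted p = 0.000745). Elovl7 read 14.57, 14.62 and 14.78 in PDGFRa-GFP and was higher in NDRG1-eGFP by 0.35 ± 0.11 (SE; limma adjusted p = 0.0426). Acly was higher by 0.46 ± 0.14 (SE; limma adjusted p = 0.0389), and Acaca was lower by -1.62 ± 0.32 (SE; limma adjusted p = 0.00658). Thus 4 of 10 genes were called beside 21.1% of all genes, 3 of them higher beside 10.7% and 1 lower beside 10.4%. The same 3 higher genes had groups that did not overlap, beside 21% of all genes, as had Acaca and Fasn among the lower, beside 14.3%. With the length trend removed 2 were higher, Acly and Elovl1, beside 8.73% of all genes, and Acaca was the 1 lower, beside 9.04%. Both comparisons with NDRG1-eGFP share its 3 libraries, so their values are set side by side and are not independent.

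The calls of Acly and Elovl7 against PDGFRa-GFP were lost in 11 and 14 of 19 alternatives, and those of Elovl1 and Acaca were kept in each of the 19. None of the 19 took account of sequence shared between loci. In this comparison the 133 genes with over 50% shared windows had a median of -1.88, beside -1.62 for Acaca, and 91.7% of them were below 0. The 10234 genes with at most 5% had a median of 0.17. How much of this Acaca difference comes from reads of the pseudogene was not tested. Without PDGFRa-GFP replicate 3 all 4 calls held and Scd1 and Fads1 passed as well, at -0.50 (limma adjusted p = 0.0268) and -0.48 (limma adjusted p = 0.026). That fit called 2804 of all 11315 genes higher and 1817 lower. Scd1 read 13.66, 13.46 and 12.57 in PDGFRa-GFP, so that replicate 3 lay below every NDRG1-eGFP library and the other 2 above them. Scd2 differed by -0.23 with a 95% interval of -0.70 to 0.24. Fasn differed by -0.49 ± 0.20 (SE; limma adjusted p = 0.113), with NDRG1-eGFP libraries all below the PDGFRa-GFP libraries. In the PDGFRa-GFP libraries the immediate early sums were 4010, 3990 and 321 ppm and the fibroblast-like sums 186, 113 and 98.8, so that replicate 3 was low in the former; their part in these values was not tested.

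Over the 9 libraries some of the genes followed Fasn and others Elovl1. Pearson correlations over 9 libraries, which include the differences between groups, were 0.88 for Fasn with Acaca, 0.90 for Fasn with Scd2 and 0.82 for Scd2 with Fads1. They were 0.88 for Elovl1 with Elovl7, and -0.81 for Elovl1 with Fasn. Among 5560 genes at or above the median level, the values most like those of Fasn were Gcn1l1 at 0.951, Lrig2 at 0.95 and Mtor at 0.95. For Scd2 they were Gatsl2 at 0.976, Il6st at 0.972 and Sik2 at 0.961. For Elovl1 they were Nabp2 at 0.992, Yipf3 at 0.992 and Emc3 at 0.99. All these correlations are of values with the length trend left in. The longest transcripts of Fasn, Acaca and Scd2 have 10050, 9513 and 5455 bases, and that of Elovl1 has 1811. Against that order Fads1, at 3460, is shorter than Elovl7, at 4013. The part of length in these correlations was not tested.

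Of 65 other genes of the pathway, 53 were measured. In NDRG1-eGFP against PLP-GFP cells 13 rose and 8 fell, a share near that of all genes in each direction, 26.1% and 22.2%. With the length trend removed these were 14 and 5. Against PDGFRa-GFP cells 11 rose and 2 fell in NDRG1-eGFP, beside 10.7% and 10.4% of all genes, and 7 and 4 with the length trend removed. Between PLP-GFP and PDGFRa-GFP 5 rose and 5 fell, beside 8.46% and 8.53% of all genes, and 1 and 2 with the length trend removed. Without PDGFRa-GFP replicate 3 the counts in these comparisons were 20 higher and 13 lower, 21 and 3, and 8 and 4. That fit also called more of all 11315 genes, so the shares above are not its background. It called 2804 higher and 1817 lower in NDRG1-eGFP against PDGFRa-GFP, and 1449 higher in PLP-GFP against PDGFRa-GFP. Its counts of all genes are not given here for NDRG1-eGFP against PLP-GFP or for genes lower in PLP-GFP against PDGFRa-GFP. The 20 higher and 13 lower, and the 4 lower, are therefore not read against all genes. For these lists both alternatives were chosen after seeing the data. The counts of NDRG1-eGFP against PLP-GFP changed only through the shared estimate of the spread. The medians of the 53 were 0.17, 0.22 and 0.05 in these comparisons.

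In the supply of citrate, acetyl-CoA and NADPH, 3 of 7 genes rose in NDRG1-eGFP against PLP-GFP, beside 26.1% of all genes, and none fell. Slc25a1, the mitochondrial citrate carrier, read 12.76, 12.55 and 12.63 in PLP-GFP and 14.24, 13.72 and 13.93 in NDRG1-eGFP, without overlap. Its log2 fold change was 1.32 ± 0.16 (SE; limma adjusted p = 0.000209), and it was 0.91 against PDGFRa-GFP (limma adjusted p = 0.00418). Acss2, which makes acetyl-CoA from acetate, rose by 0.81 and Idh1, a cytosolic source of NADPH, by 0.75. These 3 genes also passed with the length trend removed, at 0.79, 0.81 and 0.35. Of the other 4, Cs, G6pdx and Pgd were at 0.23, 0.17 and 0.33 and Me1, another source of NADPH, at -0.43, and none had passed; they are named after their values were seen.

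Other enzymes of synthesis, elongation and desaturation gave 3 higher and 1 lower of 7 measured, beside 26.1% and 22.2% of all genes. The 3 that rose, Mecr at 1.28, Mcat at 0.82 and Oxsm at 1.70, act in the separate fatty acid synthesis of mitochondria. The lower one was Scd3, at -0.55, named here after its values were seen. Elovl4, a further elongase of very long chains named likewise, was at -0.13 and did not pass (limma adjusted p = 0.689). Mcat no longer passed with the length trend removed. In the reductase and dehydratase steps shared by all elongases 1 of 5 rose, beside 26.1% of all genes. It was Tecr, the last reductase of the cycle, at 0.67 (limma adjusted p = 0.00788), with 10.8% of its windows shared with other loci. With the length trend removed Tecr was at 0.15 and did not pass. Hsd17b12, the first reductase of the cycle, differed by 0.30 (limma adjusted p = 0.0865), and Hacd1, a dehydratase, fell in PLP-GFP against PDGFRa-GFP by 0.92. The value of Hacd1 is uncertain, since 31.1% of its windows occur at other loci, and the difference was -0.67 without PDGFRa-GFP replicate 3.

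Electrons reach the desaturases through cytochrome b5 and its reductases. Of 6 measured, 2 rose and 1 fell in NDRG1-eGFP against PLP-GFP, beside 26.1% and 22.2% of all genes. Cyb5a rose by 1.01 and Cyb5r1 by 0.99, and Cyb5r4, with 19.8% of its windows shared with other loci, fell by 0.59. Cyb5a, Cyb5r1 and Cyb5r4 each passed with the length trend removed, at 0.50, 0.63 and -0.52.

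Of 14 measured regulators 1 rose and 2 fell in NDRG1-eGFP against PLP-GFP, beside 26.1% and 22.2% of all genes. Srebf1, the transcription factor that drives genes of fatty acid synthesis, read 14.37, 14.37 and 14.33 in PLP-GFP and 13.56, 13.24 and 13.47 in NDRG1-eGFP. It read 14.01, 14.23 and 14.16 in PDGFRa-GFP, above all NDRG1-eGFP libraries. The fall in NDRG1-eGFP was -0.93 ± 0.12 (SE; limma adjusted p = 0.000228) against PLP-GFP and -0.71 ± 0.12 (SE; limma adjusted p = 0.00272) against PDGFRa-GFP, and against PLP-GFP it was -0.74 with the length trend removed. Thrsp, a protein linked to lipogenesis, rose by 1.77 ± 0.27 (SE; limma adjusted p = 0.000653). Mid1ip1, its relative that acts on acetyl-CoA carboxylase, differed by 0.30 and did not pass (limma adjusted p = 0.0621), but rose by 0.78 against PDGFRa-GFP (limma adjusted p = 0.00154).

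Of 14 measured genes that activate, bind or release fatty acids, 3 were higher and 4 lower in NDRG1-eGFP against PLP-GFP. These counts are near the 26.1% and 22.2% of all genes. Fabp5, a fatty acid carrier, read 12.68, 12.59 and 12.38 in PLP-GFP and 11.23, 10.61 and 10.74 in NDRG1-eGFP. It fell by 1.69 against PLP-GFP and by 2.51 against PDGFRa-GFP, where it read 12.89, 13.38 and 13.85. Acot7, a thioesterase, rose by 0.99 and Dbi, the acyl-CoA binding protein, by 0.82 against PLP-GFP. Dbi also fell in PLP-GFP against PDGFRa-GFP by 0.79, a call lost with the length trend removed, at -0.22 (limma adjusted p = 0.523). Its difference between NDRG1-eGFP and PDGFRa-GFP was 0.03, and 0.41 with the length trend removed, and passed in neither fit. Without PDGFRa-GFP replicate 3 the differences from PDGFRa-GFP in NDRG1-eGFP were 1.05 for Slc25a1, -0.70 for Srebf1, 0.71 for Mid1ip1 and -2.27 for Fabp5, each called, and 0.04 for Dbi, and Dbi differed by -0.78 in PLP-GFP.

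**Figure D5:**
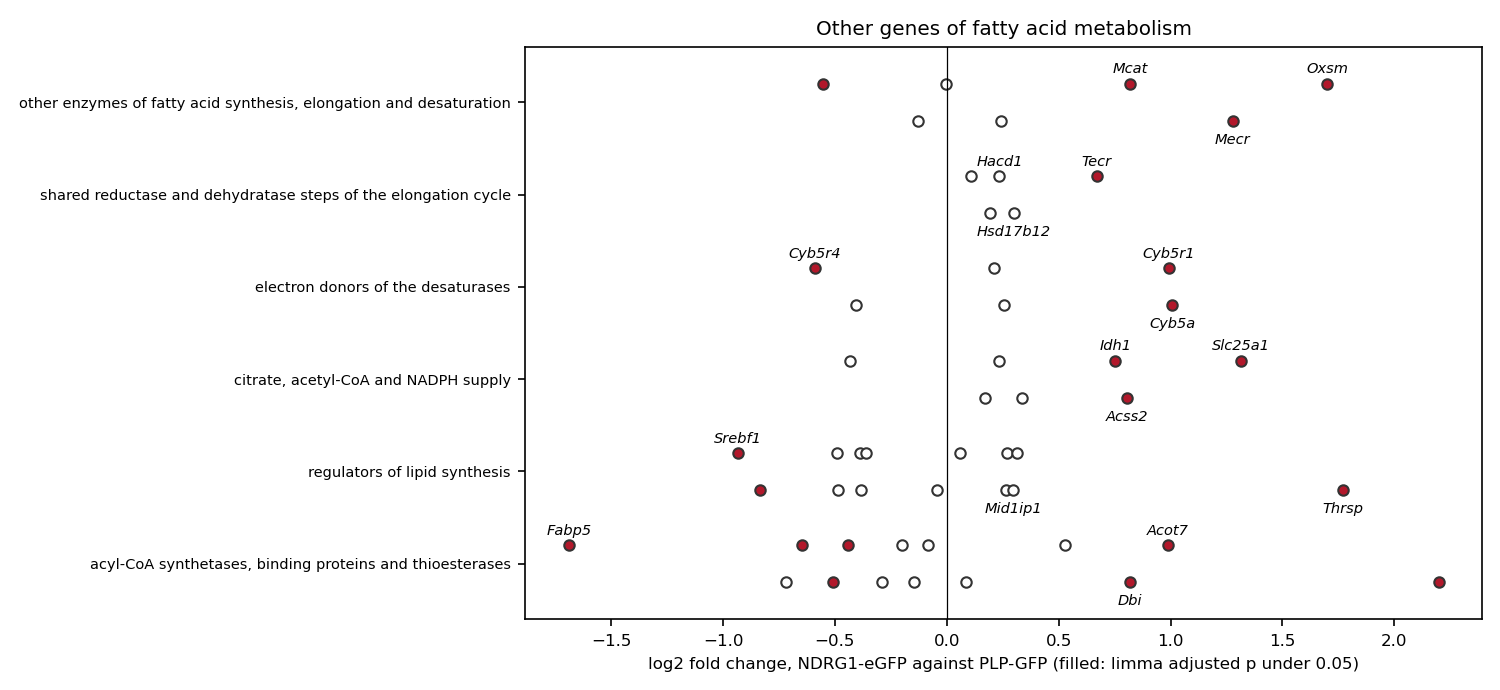
Log2 fold change for NDRG1-eGFP against PLP-GFP of the 53 measured other genes of the pathway, by list, with filled points for genes that passed a limma adjusted p under 0.05 and names for the genes chosen by rule. Slc25a1 at 1.32 and Thrsp at 1.77 lie to the right and Fabp5 at -1.69 and Srebf1 at -0.93 to the left.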

How the data were processed

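The authors deposited 1 table per library, pairing gene symbols with normalized values. The values were taken as log2 values made by the authors, from their range of 0.29 to 21.87 and the header; the log base is not stated, and a fold change in these units depends on it. All libraries had a median of 10.57 and nearly the same sorted values, as after quantile normalization. BWA, DESeq2 1.2.5 and mm10 are named, without roles, per the submitters' processing notes. Each pellet gave both RNA and DNA, per the labels' protocols. Raw counts were not analysed here, so the depth is unknown and no counting interval is given.

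The deposited log2 values of 11315 genes were fitted with limma-trend (limma 3.58.1, R 4.3.3), all 9 libraries in 1 fit with 1 term per group, for 3 comparisons. A filter for a value of 1 or more in 3 or more libraries removed no gene. Two-sided p-values were adjusted by Benjamini-Hochberg across the whole table, and genes under 0.05 were called. On simulated data over 11315 genes with 200 changed, NDRG1-eGFP against PLP-GFP recovered 2% of genes changed by 0.5, 52% of those changed by 1 and 76% of those changed by 2, with 3 false calls. GENCODE M21 (GRCm38, which mm10 denotes) gave transcript lengths and the 50-base windows shared between loci; 10929 symbols matched directly and 343 through an older symbol. Length trends were removed with a natural spline of 4 degrees of freedom.

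The members and gene lists were chosen with earlier results of these data known. Named genes are the 10 enzymes, up to 3 genes of each other pathway list with the smallest adjusted p, and the 3 genes most correlated with Fasn, Scd2 and Elovl1, predicted genes left out. Newly formed oligodendrocyte markers took 268 to 859 ppm of the summed linear values in PDGFRa-GFP, 511 to 554 in PLP-GFP and 923 to 991 in NDRG1-eGFP. In NDRG1-eGFP against PLP-GFP 2 of these 7 rose and 1 fell. Astrocyte markers took 283 to 523, 249 to 311 and 444 to 727, and 2 of 10 rose and 0 fell in that comparison. All genes gave 26.1% higher and 22.2% lower there. Over all libraries endothelium took 9.55 to 21.6 and neurons 53.8 to 140.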

Additional observations from a re-analysis of the deposited data

How the results depend on the processing

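No called fold change of the 10 genes changed sign in any of 19 alternatives. Of the alternative fold changes 509 kept their side of the threshold, 51 lost a call and 7 gained one. In NDRG1-eGFP against PLP-GFP the count of genes higher went from 2 to 1 with recentring, with the replicate block, at an adjusted p under 0.01 and with a minimum log2 fold change of 1 in size, and ran from 1 to 2 with single libraries left out. The count lower went from 4 to 2 with the length trend removed, with or without the replicate block, and to 1 with the fold minimum. In PLP-GFP against PDGFRa-GFP the count higher went from 1 to 0 with recentring, the replicate block, only both groups compared, the length trend removed with or without the block, the stricter p and the fold minimum, and ran from 0 to 4 with single libraries left out. In NDRG1-eGFP against PDGFRa-GFP the count higher went from 3 to 1 with recentring, the replicate block, only both groups compared and the stricter p, to 0 with the fold minimum, and ran from 1 to 3 with single libraries left out; the count lower ran from 1 to 3. The cause of these changes was not tested; the stricter thresholds call fewer genes by construction.

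Same-numbered libraries did not deviate together, with correlations of their deviations from -0.234 to 0.094. Libraries with different numbers gave -0.134 to 0.225. Such values cannot settle whether same-numbered libraries were handled together, and the main fit did not pair them. Over all genes, PLP-GFP against PDGFRa-GFP gave 957 higher and 965 lower, 338 and 384 with the replicate block, 552 and 514 with both groups only, 500 and 581 with the length trend removed, 150 and 229 with both the length trend removed and the block, 121 and 171 at an adjusted p under 0.01 and 284 and 353 with the fold minimum. With libraries left out its higher count ran from 92, without PLP-GFP replicate 2, to 1449, without PDGFRa-GFP replicate 3, and its lower count fell to 186, without PLP-GFP replicate 2. NDRG1-eGFP against PDGFRa-GFP gave 1207 higher and 1176 lower, and 591 and 1362 with recentring, which takes the median difference of all genes of 0.136 out. Its higher count was 457 with the block, 472 with the block and the length trend removed, 318 with both groups only, 240 at the stricter p and 159 with the fold minimum, and ran from 447 without NDRG1-eGFP replicate 1 to 2804 without PDGFRa-GFP replicate 3. Its lower count was 724 with both groups only, 659 at the stricter p, 657 with the fold minimum and 1817 without PDGFRa-GFP replicate 3. NDRG1-eGFP against PLP-GFP gave 2953 higher and 2507 lower, 1730 and 1585 with the length trend removed and the block, 1816 higher at the stricter p, and 936 and 1350 with the fold minimum. Fads2 gave no value with the minimum mean of 8.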
